A study of Mus musculus with 6 samples.

Results

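The resistin-like family of the mouse comprises 4 genes, Retnla, Retnlb, Retnlg and Retn, which encode small cysteine-rich secreted proteins. The members were taken by gene symbol from a table of 25124 genes. In bone marrow-derived macrophages given interleukin-4 (IL-4) for 4 h, Retnla rose from 4 reads over 3 control libraries to 119657 reads over 3 treated libraries. Retnlg had 1 to 6 reads per library, and Retnlb and Retn had no read in any library. Retnla transcripts made up over 99.9% of the family's summed TPM (a transcript level scaled for transcript length and depth) in every treated library.

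Members of the family are hormone-like proteins that are named after resistin, the product of Retn, which mouse adipocytes secrete and which is known for its effect on insulin sensitivity. Retnla encodes RELMα, a product of alternatively activated macrophages, eosinophils and epithelia that is widely used as a marker of the response to IL-4 and IL-13 in mice. Retnlb encodes RELMβ, which is known from goblet cells of the gut, and Retnlg encodes RELMγ, which is known from marrow and neutrophils. IL-4 binds a receptor that holds the IL-4 receptor alpha chain, its Janus kinases phosphorylate the transcription factor STAT6, and STAT6 is known to act on the Retnla promoter together with C/EBP factors.

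The 6 libraries came from marrow of femurs and tibias of wild-type C57BL/6 mice aged 8 weeks, grown for 7 days in 20 ng/ml of macrophage colony-stimulating factor (M-CSF). The 3 M0 libraries are from cells in M-CSF alone and the 3 M2 libraries from cells given 10 ng/ml IL-4 beside the M-CSF, all harvested 4 h later. The labels name no transgene or deletion. The labels do not say whether the replicates of a group came from separate mice or cultures, so that p-values measure only the spread between these samples, which may be technical.

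Reads recovered from the TPM values came to 16913185 to 19019896 per library, and 1 read in a transcript of 1 kb was worth 0.0610 to 0.0700 TPM. Scatter on these reads, the chi-square over its degrees of freedom, was 1.54 to 1.73 between M2 libraries and 2.31 between M0 replicates 1 and 3, but 9.52 and 10.7 between M0 replicate 2 and the other 2. The test was limma-trend on log2(TPM + 1), adjusted by Benjamini-Hochberg over the 11235 genes with at least 1 TPM in at least 3 libraries, with a threshold of 0.05. It called 7071 genes, or 62.9%, of which 1983 (17.7% of those tested) were higher in M2 and 5088 (45.3%) lower. The median log2 fold change of all tested genes was -0.15 and not 0, and after division of each library by a median-ratio factor it was 0.00 with 6413 genes (57.1%) called, 3208 (28.6%) higher and 3205 (28.5%) lower. The macrophage label was checked on 13 macrophage markers, all of which passed the filter and summed to 20991 to 21655 TPM in M0 and 19006 to 19437 TPM in M2. Among them 4 were higher and 7 lower in M2, or 5 higher and 3 lower after median scaling. Csf1r, the M-CSF receptor, was at 674 ± 11.8 in M0 and 912 ± 1.97 TPM in M2 (mean ± SD here and below, n = 3 each). The 3 lower in both fits were Fcgr1, Cd14 and C1qa. Fcgr1 fell from 128 ± 7.55 to 20.6 ± 1.05 TPM, Cd14 from 158 ± 3.83 to 65.4 ± 1.63 TPM and C1qa from 472 ± 49.5 to 286 ± 3.64 TPM. Most of the summed TPM was Lyz2, at 13744 ± 508 in M0 and 12051 ± 182 TPM in M2, so that the sum says little of the other markers. In bulk samples such as these, fewer cells of a type and less RNA per cell cannot be told apart.

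Retnlb, Retnla and Retnlg lie side by side on mouse chromosome 16 and Retn on chromosome 8, all on the plus strand in mm10. Retnlb (NM_023881) spans positions 48816856 to 48818892, Retnla (NM_020509) 48842609 to 48844461 and Retnlg (NM_181596) 48872608 to 48874498, each with 4 exons in GENCODE M21. Retn (NM_001204959) spans positions 3655770 to 3659818 of chromosome 8 and its matched GENCODE transcript has 5 exons. Coding sequences of Retnla and Retnlg were identical at 83.6% of ungapped aligned bases, those of Retnlb and Retnlg at 81.4%, and those of Retnla and Retnlb at 74.8%. Retn shared 63.6% to 68.8% with the other 3. No transcript pair shared a run of 50 bases. The longest shared run, between Retnla and Retnlg, was 49 bases, and the read length is not given in the sources used here, so that the splitting of reads within that run could not be checked.

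The stretches upstream of Retnla and Retnlg are shown because these paralogs lie 30 kb apart, have related promoters and differed in level by orders of magnitude in M2. They are the 250 bases before the RefSeq transcript start on the plus strand of GRCm38.p6 (the build called mm10), chr16:48842359-48842608 for Retnla and chr16:48872358-48872607 for Retnlg, with matches to a set of motifs in capitals.
Retnla: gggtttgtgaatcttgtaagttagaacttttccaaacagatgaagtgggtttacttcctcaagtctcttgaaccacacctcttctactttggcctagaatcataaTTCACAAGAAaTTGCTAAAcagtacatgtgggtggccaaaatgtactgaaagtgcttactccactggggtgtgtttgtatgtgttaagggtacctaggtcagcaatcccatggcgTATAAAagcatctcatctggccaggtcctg
Retnlg: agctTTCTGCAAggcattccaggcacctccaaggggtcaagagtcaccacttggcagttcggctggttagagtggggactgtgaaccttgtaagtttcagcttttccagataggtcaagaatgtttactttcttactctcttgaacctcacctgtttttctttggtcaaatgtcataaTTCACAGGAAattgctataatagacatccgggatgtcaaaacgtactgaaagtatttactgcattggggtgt
The motifs, searched on both strands, were TTC and GAA 4 bases apart, TTC and GAA 3 bases apart (both forms of STAT site), TTGCNNAA, a site of C/EBP factors, and the core promoter box TATAAA. RefSeq windows of 300 bases, 250 before and 50 after the start, were at hand for 3 of the 4 members, and the Retn window held none of these motifs.

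The Retnla window held TTCACAAGAA at position -145 from the start (chr16:48842464-48842473), TTGCTAAA at -134 (chr16:48842475-48842482) and TATAAA at -30. GENCODE M21 starts the Retnla transcript at position 48842551 and its coding sequence at 48842573. Both lie upstream of that TATAAA (chr16:48842579-48842584), which in this annotation is therefore not upstream of the gene. The Retnlg window held TTCACAGGAA at -72 (chr16:48872536-48872545) and, on the minus strand, a C/EBP match at -246 with no counterpart among the Retnla matches. In an alignment of the windows, 178 bases matched, 47 did not and 3 columns held a gap, and the RefSeq starts lay 73 bases apart. The Retnla STAT match aligned with the Retnlg one with a single substitution, A7G, counted from 1 at the 5′ end of the motif, which keeps the motif. The bases under the Retnla C/EBP match carried 1 inserted base in Retnlg and no longer matched TTGCNNAA. The bases under the Retnla TATAAA differed by A4T and aligned at 43 bases after the Retnlg start, where they no longer matched TATAAA. Over 32851 windows of 27025 genes, 6.95% held the STAT motif with 4 bases between, 8.30% that with 3 bases between, 10.8% TTGCNNAA and 13.6% TATAAA. The STAT motif with 4 bases between together with TTGCNNAA, as in the Retnla and Retnlg windows, occurred in 276 windows (0.840%). These are matches of letters and no binding was measured.

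The level of Retnla was 0, 0.124 and 0.392 TPM in M0 replicates 1, 2 and 3, from 0, 1 and 3 reads. In M2 replicates 1, 2 and 3 it was 4991, 4720 and 4867 TPM, from 39088, 37880 and 42689 reads. The groups did not overlap, and the lowest M2 library lay more than 4 orders of magnitude above the highest M0 library. On the log2(TPM + 1) scale the difference was 12.03 (SE 0.11, limma-trend adjusted p = 1.0e-10), the largest of the 11235 genes tested, ahead of the next at 9.30. Retnla passed the filter on low values through its M2 libraries alone, and an exact two-sided permutation test of its mean TPM gave p = 0.1, the smallest that 3 against 3 libraries allow. The size of the fold rests on 4 M0 reads, and the ratio of reads adjusted for depth had a 95% counting interval from 11352 to 106680.

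Retnla ranked sixth by TPM in each of the 3 M2 libraries, where it took 0.868% to 0.919% of the summed TPM and 0.217% to 0.230% of the reads. Only Lyz2, Psap, Ftl1, Ctsd and Fth1, which encode lysozyme, a lysosomal activator protein precursor, the ferritin chains and cathepsin D, had a higher mean TPM in M2. Between M2 libraries the level of Retnla varied with a coefficient of variation of 2.79%, against 0.501% from counting alone. The 46 genes with a mean of at least 1000 TPM in M2 had a median coefficient of variation of 1.14%, and 44 of them, Retnla included, lay at or below that of Retnla. Its level was thus among the more variable of the abundant transcripts within M2, although this spread was small beside the difference from M0.

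The authors' deposited table of the comparison gives Retnla a log2 fold change of 12.44, and prints 0 for both its p-value and the adjusted one. In the authors' deposited log2-scale values Retnla stood at 5.91, 5.90 and 6.05 in M0 replicates 1, 2 and 3 and at 15.23, 15.15 and 15.19 in M2. The first of these M0 values belongs to a library with no Retnla read. Retnlg, with 5 reads in the same library, stood at 1.95 there. Refitting those log2-scale values with limma-trend gave Retnla a difference of 9.24 between the groups, smaller than the fold change in the same deposited table.

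**Figure D1:**
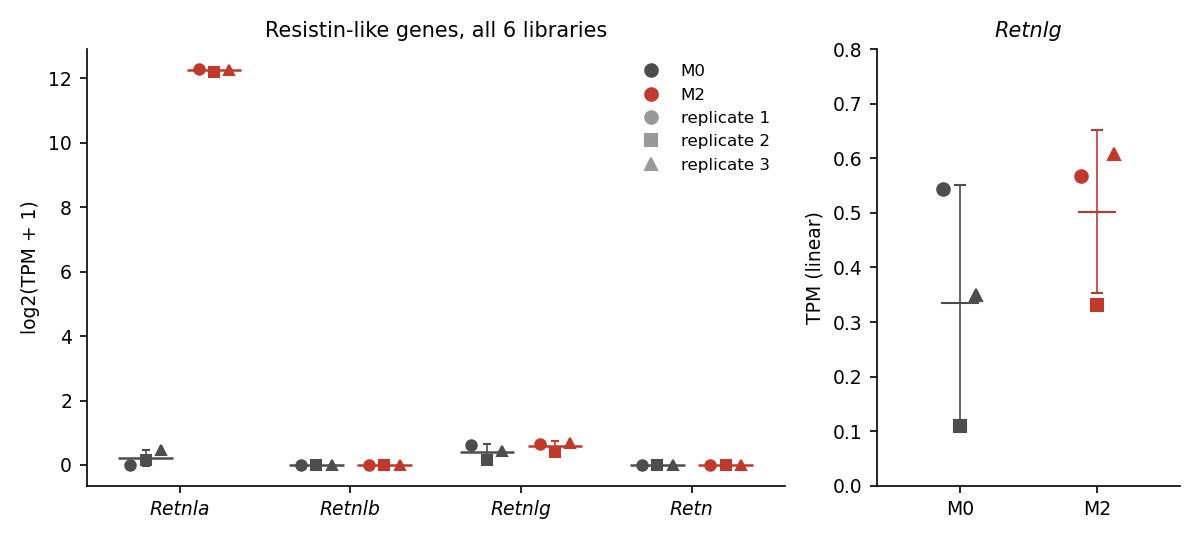
Levels of the 4 resistin-like genes in each library as log2(TPM + 1) (left) and of Retnlg as TPM on a linear axis (right); points are libraries (shape gives the replicate), horizontal lines the group means and bars the SD of 3 libraries. Retnla separates the groups completely, Retnlb and Retn lie at 0 in all 6 libraries, and the Retnlg groups overlap, with means of 0.334 in M0 and 0.502 TPM in M2.

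Retnlg was at 0.543, 0.110 and 0.349 TPM in M0 replicates 1, 2 and 3, from 5, 1 and 3 reads. In M2 it was at 0.567, 0.332 and 0.608 TPM, from 5, 3 and 6 reads. The groups overlapped, and no library reached 1 TPM, so that the gene was outside the genes tested. The mean was 0.334 ± 0.217 in M0 and 0.502 ± 0.149 TPM in M2, and an exact two-sided permutation test gave p = 0.3. The ratio of reads, M2 over M0, was 1.51 with a 95% counting interval of 0.609 to 3.96. That interval is the range of ratios that these read counts allow, and the smallest change detectable at this depth was not computed. The authors' deposited table gives Retnlg a log2 fold change of 0.38 with an adjusted p of 0.578.

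Retnlb and Retn had 0 reads in each of the 6 libraries. Counting 3 reads over a group as the upper limit, Retnlb was at no more than 0.0972 in M0 and 0.0944 TPM in M2, and Retn at no more than 0.117 in M0 and 0.113 TPM in M2. These limits cover counting error only. No read in any library was also the result for 6612 genes, or 26.3% of the table. M0 thus held few reads of Retnlg and Retnla, whose libraries overlapped, and 2 undetected genes. The M0 levels rest on 9 reads of Retnlg and 4 of Retnla, so that the order of the 4 genes in M0 is uncertain. In M2 Retnla lay far above Retnlg. Of the family's summed TPM, Retnla took 0%, 53.0% and 52.9% in M0 replicates 1, 2 and 3, shares that rest on 5, 2 and 6 reads of the whole family. In M2 its share was 99.99% in each library.

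Markers of the cells in which the members are otherwise known were read from the same libraries. For Retnlg, 19 neutrophil markers summed to 63.7 to 74.0 TPM in M0 and 86.8 to 94.0 TPM in M2. Of the 9 that were tested, Csf3r, the granulocyte colony-stimulating factor receptor, rose from 6.35 ± 0.488 to 25.6 ± 0.780 TPM and Mmp9, a matrix metalloproteinase, from 4.16 ± 0.292 to 8.67 ± 0.364 TPM. Lcn2 fell from 2.94 ± 0.334 to 2.15 ± 0.222 TPM, a call that was lost after median scaling (adjusted p = 0.1). S100a8, S100a9, Camp, Ltf, Ngp and Mmp8 did not pass, and of these all but Mmp8 had a lower mean in M2. The rise of the sum was thus mostly that of Csf3r. After the same scaling Mmp8 was called higher (log2 fold change 0.30, adjusted p = 0.0054), which gave 3 higher and 0 lower in the list. Over all tested genes 17.7% were higher and 45.3% lower before scaling, and 28.6% were higher and 28.5% lower after scaling. The part of these markers in the Retnlg level was not tested.

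For Retnla, the eosinophil granule genes Prg3 and Epx were at 0 in all 6 libraries and Prg2 had 1 read in all, in an M2 library. The 6 eosinophil markers summed to 14.8 to 16.4 TPM in M0 and 8.13 to 8.84 TPM in M2, nearly all of it Ccr3, which fell, and Siglecf, which rose. For Retnlb, none of 8 goblet cell markers was tested, their sum was at most 0.332 TPM in any library, and Tff3, Agr2 and Spink4 were at 0. For Retn, the adipocyte genes Lep and Pck1 were at 0 and 1 of 8 adipocyte markers was tested. That gene, Adipoq, which encodes the adipocyte hormone adiponectin, had no read in M0 and 169 reads in M2 (2.73, 3.31 and 2.93 TPM). Its log2 fold change was 1.99 (adjusted p = 3.6e-08), but it met the filter through its M2 libraries alone, so that only a gene that differed could be tested. Without it the adipocyte list was near 0 in both groups. Of cell types not tied to a member, 5 fibroblast markers summed to 9.30 to 9.83 TPM in M0 and 6.95 to 7.45 TPM in M2, while B and T cell markers reached at most 0.272 TPM and dendritic cell markers at most 1.52 TPM in a library.

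Genes known to act between the IL-4 receptor and the Retnla promoter were taken as a list of 24, all of which were tested. In M2, 11 were higher, 6 were lower and 7 did not pass, with a median log2 fold change of 0.02, beside 17.7% higher, 45.3% lower and a median of -0.15 over all tested genes. After median scaling 13 were higher and 5 lower, beside 28.6% higher and 28.5% lower over all tested genes. No receptor chain of the list and not Stat6 was called higher, and the 11 that rose were 3 Janus kinases, 7 transcription factors and Kdm6b. Of these, Irf4 met the filter on low values through its M2 libraries alone.

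Among receptor chains, Il4ra was at 79.7, 73.2 and 75.2 TPM in M0 and 65.5, 69.9 and 68.9 TPM in M2. Its log2 fold change of -0.16 (adjusted p = 0.018) became 0.01 after median scaling (adjusted p = 0.88) and missed the threshold without M0 replicate 1 (adjusted p = 0.066) or M2 replicate 1 (adjusted p = 0.089). Il13ra1, the chain that pairs with Il4ra in the receptor for IL-13, fell from 3.34 ± 0.457 to 1.02 ± 0.213 TPM. Il2rg, the common gamma chain, had 53.4 ± 2.07 in M0 and 50.02 ± 2.29 TPM in M2 and did not pass.

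Of the kinases, Jak2 rose from 12.0 ± 2.32 to 40.2 ± 1.39 TPM (log2 fold change 1.67, adjusted p = 8.8e-07), and Jak1 and Tyk2 rose with smaller log2 fold changes of 0.28 and 0.20. Jak3, at 14.6 ± 0.872 in M0 and 14.4 ± 0.334 TPM in M2, did not pass. Stat6 was at 126, 130 and 119 TPM in M0 and at 93.8, 92.4 and 94.6 TPM in M2. The groups did not overlap, and Stat6 fell by 0.42 on the log2 scale (adjusted p = 2.3e-05), or by 0.25 after median scaling. Parp14, a known cofactor of STAT6, fell from 72.0 ± 8.36 to 32.1 ± 0.770 TPM.

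Among the C/EBP factors, Cebpa went from 158, 134 and 157 TPM in M0 to 282, 295 and 279 TPM in M2 (log2 fold change 0.93, adjusted p = 5.1e-07). Cebpd rose from 17.1 ± 1.42 to 32.8 ± 1.18 TPM. Cebpb was at 159, 114 and 146 TPM in M0 and 138, 141 and 132 TPM in M2, so that the groups overlapped, and it did not pass (adjusted p = 0.93). Its lowest value was in M0 replicate 2, the library that stood apart, and without it Cebpb was lower in M2 (log2 fold change -0.15, adjusted p = 0.018).

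Egr2, a zinc-finger factor, rose from 4.14 ± 0.353 to 86.1 ± 0.863 TPM (log2 fold change 4.08, adjusted p = 1.4e-11). Irf4, an interferon regulatory factor of alternative activation, rose from 0.315 ± 0.0564 to 9.69 ± 0.273 TPM. It was below 1 TPM in each M0 library and met the filter through its M2 libraries alone, so that only a gene that differed could be tested. Egr2 had the largest difference of the list on the log2(TPM + 1) scale, whereas the ratio of mean TPM was larger for Irf4, at 30.8 against 20.8. Bhlhe40 rose from 16.9 ± 0.587 to 80.5 ± 2.78 TPM, whereas its paralog Bhlhe41 fell from 26.8 ± 1.18 to 10.2 ± 0.492 TPM. These are a pair of related basic helix-loop-helix repressors, and each kept its direction after median scaling. Klf4, a Krüppel-like factor, rose with a log2 fold change of 1.51, Pparg, a nuclear receptor for fatty acids, with 1.04, and Kdm6b, a histone demethylase, with 0.96.

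Of the coactivators Ep300, Crebbp and Ncoa1 and the nuclear receptor Rxra, none passed. Crebbp (0.21) and Rxra (0.12) were called higher after median scaling, and Ep300 (-0.30) and Ncoa1 (-0.24) were called lower without M0 replicate 3. Ncoa1 was also called lower with limma-voom on the reads of all 6 libraries (log2 fold change -0.17, adjusted p = 0.048). Rictor, a subunit of the mTORC2 complex, fell by 0.35 on the log2 scale. With no filter on low values 13 of the 24 passed, 9 higher and 4 lower, beside 1226 higher and 2461 lower of 25124 genes. The calls of Il4ra, Jak1, Tyk2 and Rictor were those lost. The 25124 genes include 6612 with no read in any library, whereas all 24 of the list met the filter. The share of the list that passed is therefore not comparable with that of the 25124 genes.

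**Figure D2:**
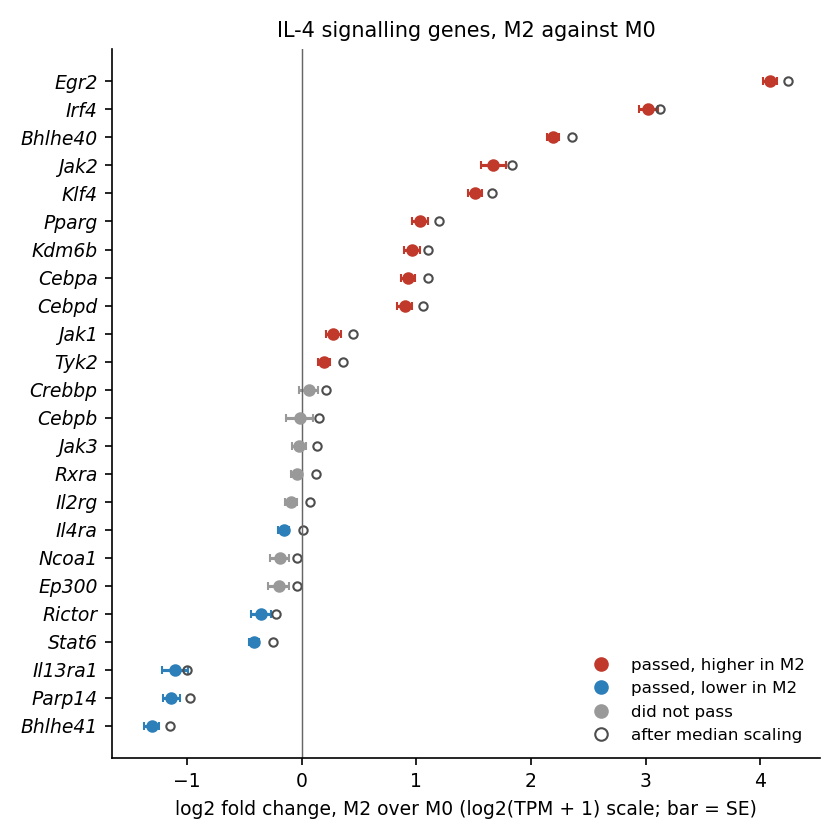
Log2 fold changes, M2 over M0, on the log2(TPM + 1) scale for the 24 IL-4 signalling genes; filled points with bars are the estimate and its SE from 3 libraries per group, and open points the estimate after median scaling. Of the list 11 were higher, from Tyk2 at 0.20 to Egr2 at 4.08, and 6 were lower, down to Bhlhe41 at -1.31, while Il4ra moved to 0.01 after scaling.

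Downstream of the secreted proteins, 11 genes were read, of which 7 passed the filter: receptors and binding partners of resistin-like proteins, and genes of the insulin and adiponectin response. In M2, 2 were higher, 3 lower and 2 did not pass, with a median log2 fold change of -0.01, and after median scaling 3 were higher and 2 lower. Beside these stand 17.7% higher and 45.3% lower over all tested genes, or 28.6% and 28.5% after scaling, so that the counts of this short list lie near the background. Cap1, which encodes an adenylyl cyclase-associated protein known as a receptor of human resistin, was at 320, 337 and 307 TPM in M0 and 205, 209 and 207 TPM in M2. The groups did not overlap, and Cap1, the gene of the list with the highest TPM in both groups, fell by 0.63 on the log2 scale (adjusted p = 5.7e-07).

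Irs2, an adaptor of the insulin and IL-4 receptors, rose from 6.04 ± 0.114 to 11.8 ± 0.294 TPM, and Insr, the insulin receptor, from 5.62 ± 0.419 to 7.37 ± 0.317 TPM. The adiponectin receptors Adipor1 and Adipor2, which are not known to bind a resistin-like protein and make up 2 of the 3 lower calls, fell by 0.28 and 0.36 on the log2 scale, and the Adipor1 call was lost after median scaling (adjusted p = 0.14). Tlr4, which has been described as a binding site of resistin, was at 36.8, 45.8 and 35.7 TPM in M0 and 38.4, 38.8 and 39.4 TPM in M2 and did not pass. Its highest value was in M0 replicate 2, and without that library it was called higher in M2 (log2 fold change 0.10, adjusted p = 0.037). Btk, a kinase known to bind RELMα, had 47.0 ± 2.965 in M0 and 47.8 ± 2.15 TPM in M2 and did not pass, but was called higher after median scaling (log2 fold change 0.19, adjusted p = 0.011). Dcn, Ror1, Plod2 and Irs1 were below the filter, and with no filter only 2 of the list passed, 1 in each direction.

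Along chromosome 16, entries within 300 kb of the 57.6 kb that the cluster spans were compared with it. No entry but Retnla was called higher. Trat1, upstream of the cluster, had 1 read in each group, and Myh15, downstream, had 7 reads in M0 and 11 in M2. Dzip3, which starts 81.6 kb downstream of the Retnla start, was at 3.13, 4.18 and 3.51 TPM in M0 and 2.50, 2.42 and 2.72 TPM in M2, and was called lower (log2 fold change -0.37, adjusted p = 0.0074), a call that was lost with no filter on low values (adjusted p = 0.15). Cip2a, an inhibitor of a protein phosphatase that is known from proliferating cells, starts 152 kb downstream and fell from 8.94 ± 0.980 to 3.77 ± 0.331 TPM. Both tested neighbours were thus lower in M2, as were 45.3% of all tested genes.

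Within 100 kb of Retn on chromosome 8, 4 of 12 other entries were tested. Stxbp2, Xab2 and Pet100 did not pass, and Trappc5 was called lower with a log2 fold change of -0.19 that became -0.03 after median scaling (adjusted p = 0.69). The Trappc5 call was also lost without M0 replicate 1 (adjusted p = 0.057) or M2 replicate 2 (adjusted p = 0.11). Stxbp2, which encodes a protein of granule release, had 61.3 ± 2.90 in M0 and 59.5 ± 0.925 TPM in M2, and without M0 replicate 2 it was called lower (log2 fold change -0.08, adjusted p = 0.047). Mcemp1, the nearest entry downstream at 10.0 kb, had 23 reads in M0 and 7 in M2. Retn, with no read, thus lies between genes with reads on both sides.

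**Figure D3:**
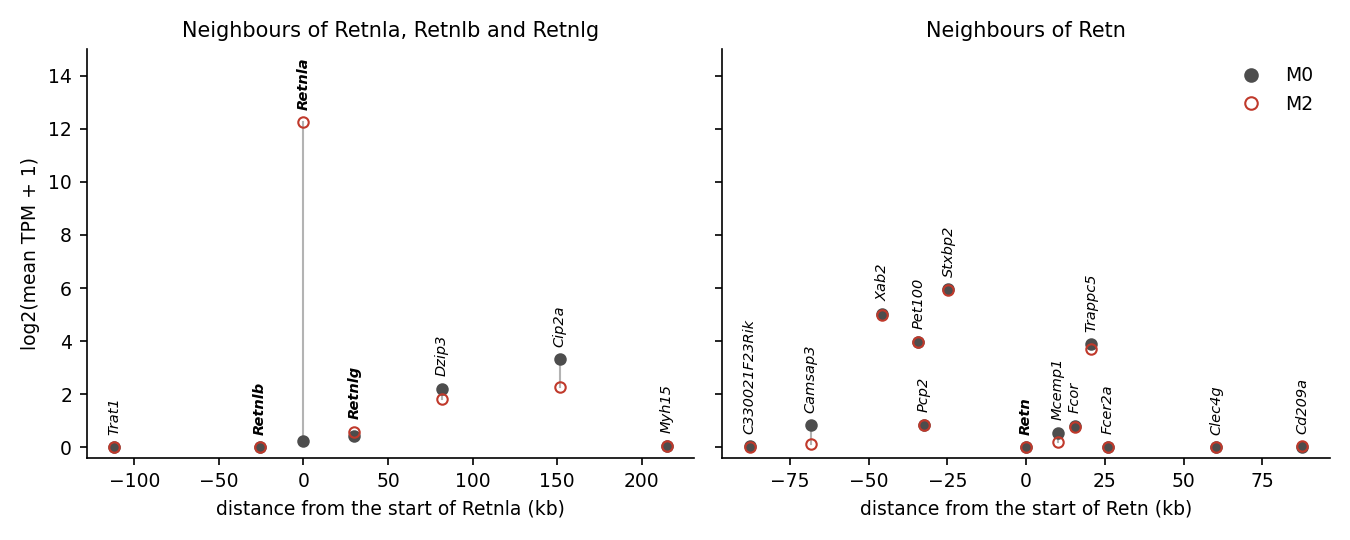
Mean level as log2(TPM + 1) in M0 (filled) and M2 (open), each the mean of 3 libraries, against the distance of each gene's start from the start of Retnla (left) or Retn (right) in kb; lines join the group means of a gene. In the left panel Retnla is the only gene that rises from near 0, with Retnlb at -25.8 kb and Retnlg at 30 kb close to 0 in both groups.

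By Euclidean distance over log2(TPM + 1) in the 6 libraries, the genes most like Retnla were Chil3 (3.69), Arg1 (4.41), Ear3 (6.41), Rnase2a (6.45), Mgl2 (8.55) and Socs1 (9.73). Chil3 encodes a chitinase-like lectin, Arg1 an arginase, Ear3 and Rnase2a ribonucleases of the eosinophil type, Mgl2 a C-type lectin and Socs1 an inhibitor of cytokine signalling. Ear3 shares its span with Ear2 and Ear12, so that these entries are a single locus. The likeness is one of low M0 and high M2 levels and was ranked by a rule, with no test.

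The nearest of them, Chil3, was at 3.64, 3.46 and 3.71 TPM in M0 and 2976, 2867 and 2857 TPM in M2. It thus began above Retnla and ended below it, with no overlap in either group. Arg1 was at 1.87, 1.22 and 1.57 TPM in M0 and 1016, 1007 and 1002 TPM in M2. Rnase2a, like Retnla in M0 replicate 1, had no read in any M0 library, and reached 379, 358 and 374 TPM in M2. Promoter windows were at hand for 4 of the 6 and none held the STAT motif with 4 bases between. The Chil3 window held that with 3 bases between and TATAAA, the Rnase2a window TTGCNNAA, and those of Mgl2 and Socs1 none of the motifs.

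**Figure D4:**
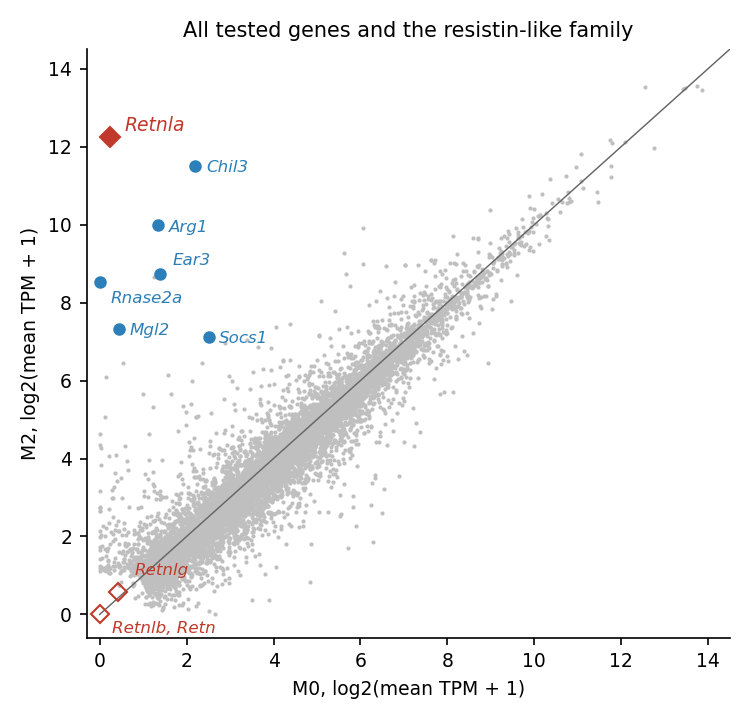
Mean level in M2 against mean level in M0, each as log2(mean TPM + 1) of 3 libraries, for the 11235 tested genes (grey), the 6 genes nearest to Retnla (blue) and the family (red diamonds, open where not tested); the line marks equal levels. Retnla lies at the upper left, at 0.172 in M0 and 4859 TPM in M2, while Retnlg, Retnlb and Retn lie at the lower left.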

How the data were processed

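The authors deposited TPM per library and gene, made with HOMER over exons of RefSeq genes, per the file headers. The authors' deposited comparison holds, per the file headers, library values and fold changes on a log2 scale, the former by a transformation that is not named, and each gene's p-value before and after adjustment. Tools in the submitters' processing notes are bcl2fastq, STAR, HOMER 4.11.1 and DESeq2, with the mm10 build. Members and gene lists were chosen with earlier results of these data known.

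There were 3 entries shifted by commas, which were realigned. TPM times transcript length gave whole reads within 0.1 read for 99.9% of values under 1000 reads. Between 89.8% and 90.9% of the headers' tags were recovered so. The TPM summed to 548160 to 553186 in M0 and 542749 to 543854 in M2, below a full total, for a reason that was not tested. Groups were compared by limma-trend in R 4.3.3 (version 3.58.1 of limma; robust, two-sided, group the only term) on log2 of TPM plus a pseudocount of 1, a scale that understates changes of low genes; the test was tried on simulated data first. Median-ratio factors ran from 0.942 to 1.09. Count intervals are at 95%, and a limit is 3 reads over a group; both cover counting error only.

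Named genes were the members, the listed genes, the 6 nearest to Retnla by distance and the entries near the loci; Adipoq, Csf3r, Mmp9 and the other markers named were picked from their lists after values were seen. Promoters are those of RefSeq on GRCm38.p6 and coding sequences of GENCODE M21, aligned with Biopython 1.88. Retnlb had no promoter window. Other tools were Python 3.11.15, numpy 2.4.6, pandas 2.3.3, scipy 1.17.1 and matplotlib 3.10.9.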

Additional observations from a re-analysis of the deposited data

How the results depend on the processing

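Retnla kept its direction, its call and its rank as the largest log2 fold change under each alternative, with values from 9.24 on the authors' deposited log2-scale values to 14.85 with limma-voom on recovered reads, and from 11.92 to 12.16 when single libraries were left out. Pseudocounts of 0.1 and 5 gave 14.41 and 9.88. Retnlg differed by 0.18 on the log2(TPM + 1) scale, by 0.58 with a pseudocount of 0.1, and by 0.05 to 0.29 without single libraries, while limma-voom and the minimum of 50 reads gave it no value. Retnlb and Retn were at 0 wherever a value was given, leave-one-out included (0 to 0).

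With no filter on low values 3687 genes passed (1226 higher, 2461 lower) against 7071, with more genes tested, and 2 of the receptor and partner list against 5. Genes that passed numbered 6218 to 7456 without single libraries, those of the IL-4 signalling list 16 to 19, and those of the receptor and partner list 5 to 6. The split of calls moved from 1983 higher and 5088 lower to 3208 and 3205 with median scaling, and to 3318 and 3323 on the authors' log2-scale values. Il4ra turned to 0.011 with median scaling and 0.0093 on the authors' values, Rxra to 0.12 with both, Jak3 to 0.17 on the authors' values, and Tlr4 to 0.10 without M0 replicate 2 (-0.077 to 0.10 over the libraries left out); the cause was not tested. Same-numbered libraries did not deviate together (correlations 0.005, -0.005 and -0.043). With 3 libraries per group this cannot show whether they share a mouse, a culture or a batch. With the replicate number as a block, 6916 genes passed, Retnla was at 12.03 (adjusted p = 6.0e-10), and 17 and 5 genes of the lists passed. In that fit of all tested genes, no call changed among the 47 genes that were followed across the settings. These are the tested genes of both lists, those nearest to Retnla, the tested neighbours, and Adipoq, Csf3r, Mmp9 and Csf1r, so that the other markers were not included.

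Depth limits the 3 low members: 1 read was worth about 0.1 TPM for transcripts of their length, so that the M0 level of Retnla, all of Retnlg, and the limits for Retnlb and Retn rest on 0 to 14 reads per group. Each group has 3 libraries, and only 1 time and 1 dose of IL-4 were measured.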

Other observations

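Some markers of other cell types had few reads in M0 and more in M2. These genes were picked from the marker lists after their values were seen, and those under the filter were not tested. Cxcr2, a chemokine receptor of neutrophils, had 7 reads in M0 and 122 in M2 (0.764, 1.10 and 0.763 TPM in M2). Zbtb46, a transcription factor of dendritic cells, had 7 reads in M0 and 98 in M2 (1.06, 0.996 and 1.12 TPM in M2). Slc2a4, which encodes the insulin-responsive glucose transporter, had 1 read in M0 and 22 in M2. For none of these did the M0 and M2 libraries overlap, but the share of all genes without overlap was not counted. Since 62.9% of all tested genes were called, a lack of overlap alone does not set these genes apart. Untested genes of the same neutrophil and dendritic lists went the other way, also without overlap: Mcemp1 had 23 reads in M0 and 7 in M2, and Xcr1 48 and 21.

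Camsap3, which starts at -68.3 kb from the start of Retn, went the other way, with 103 reads in M0 (0.799, 0.480 and 1.02 TPM) and 14 in M2 (0.135, 0.0880 and 0.0810 TPM). It did not reach the filter and was not tested.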
